A study of Mus musculus with 5 samples.

Results

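Chemokine receptors are G protein-coupled receptors that steer leukocytes along gradients of small secreted proteins, the chemokines. In regulatory T (Treg) cells, which restrain other immune cells, the receptors carried on the surface help to set the tissue in which the cells settle. Many of these receptor genes lie side by side on distal mouse chromosome 9. RNA polymerase II (Pol II) over 9 genes of that region was described here: the chemokine receptors Ccr9, Cxcr6, Xcr1, Ccr1, Ccr3 and Ccr2, the receptor-like gene Ccrl2, and Lztfl1 and Fyco1, which are not receptors but lie among them. The genes were chosen by name, and each was given every Pol II peak whose midpoint lay in its gene body or in the 3 kb upstream. By this rule 6 of the 9 genes held 21 distinct peaks, of 56615 peaks and 12928 genes with a peak in all, and Ccr1, Ccr2 and Ccr3 held none. The authors had picked out Cxcr6 and Ccr9 in the libraries used here, so the values of both are not independent evidence of a direction.

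Pol II was profiled by CUT&Tag, in which a transposase tethered to an antibody tags the DNA next to the bound protein, so that sequenced fragments collect around Pol II. Treg cells were sorted from spleens of C57BL/6 mice aged 8 weeks, female and male pooled. The mice had been injected for 3 days with IL-2c, which is 1 μg IL-2 bound to 5 μg of an antibody against it and makes Treg cells multiply, and the last injection preceded collection by 48 hours. All mice carried a Cre recombinase driven by Foxp3, the gene of the factor that defines Treg cells. Control mice (Ctrl) had 1 floxed and 1 intact allele of Setd2, which encodes the histone H3 lysine 36 methyltransferase, and knockout mice (KO) had both alleles floxed, so deletion was confined by design to cells that express Foxp3. Each group had 2 libraries of 80000 nuclei. The labels give 2 mice per genotype, and according to the methods their cells were combined for sorting. The methods call each such library a biological replicate. It is not stated whether the libraries of 1 genotype were split from a single pool, so p-values measure the spread between these libraries, which may be technical.

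Ctrl 1 and Ctrl 2 had total counts of 11331274 and 5624680, and KO 1 and KO 2 of 13351007 and 4489646, so the libraries numbered 2 were the shallower. Values are counts divided by the size factor of their library (normalized counts) and are given in the order Ctrl 1, Ctrl 2, KO 1, KO 2 unless stated. Sums over the peaks of a gene were scaled by size factors of their own, so a gene with 1 peak differs slightly between the peak scale and the gene scale. Over Setd2 itself, 9 peaks summed to 512, 518, 455 and 569, a log2 fold change of -0.02 ± 0.19 (SE). The excised segment is not given in the sources used here, so this value does not check the deletion. All 6 Treg markers listed, Foxp3, Il2ra, Ctla4, Ikzf2, Cd3e and Cd4, held peaks. Their summed levels lay between 26662 and 32196 in the 4 libraries, mostly from Ikzf2 (mean 16212 over 60 peaks). These sums were not scaled to peak length. Of 24 markers of B cells, monocytes and macrophages, dendritic cells, eosinophils and CD8 T cells, 6 held a peak. These were Cd79a of B cells, Cd14 of monocytes and macrophages, and Flt3, Batf3, Irf8 and Zbtb46 of dendritic cells. The others held none, Ms4a1, Csf1r, Itgax, Siglecf and Cd8a among them. The dendritic cell list had the highest summed level of these, between 767 and 869 in the 4 libraries, mostly from Zbtb46. The mean of Zbtb46, 576, was above that of the Treg marker Cd3e, 525.

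In the assembly mm10 the genes Ccr9 to Ccr2 filled an interval of 435 kb (chr9:123678439-124113557) in the order Ccr9, Lztfl1, Fyco1, Xcr1, Ccr1, Ccr3 and Ccr2. Cxcr6 (chr9:123806475-123811760, plus strand) lay inside an intron of 17.7 kb of Fyco1 (chr9:123789500-123851899, minus strand). Lztfl1 (chr9:123694416-123717697, minus strand) lay inside the annotated Ccr9 gene (chr9:123678439-123784330, plus strand), because a long annotated transcript of Ccr9 begins 88.7 kb upstream of the transcript at the usual start, which is the one near the RefSeq start. CUT&Tag does not record strand, so peaks in these overlaps could not be given to 1 of the 2 genes. Ccrl2 (chr9:111054486-111057519, minus strand) lay 12.6 Mb from Ccr9 and is therefore not a neighbour of the other 8. It lay 436 kb from Setd2.

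**Figure D1:**
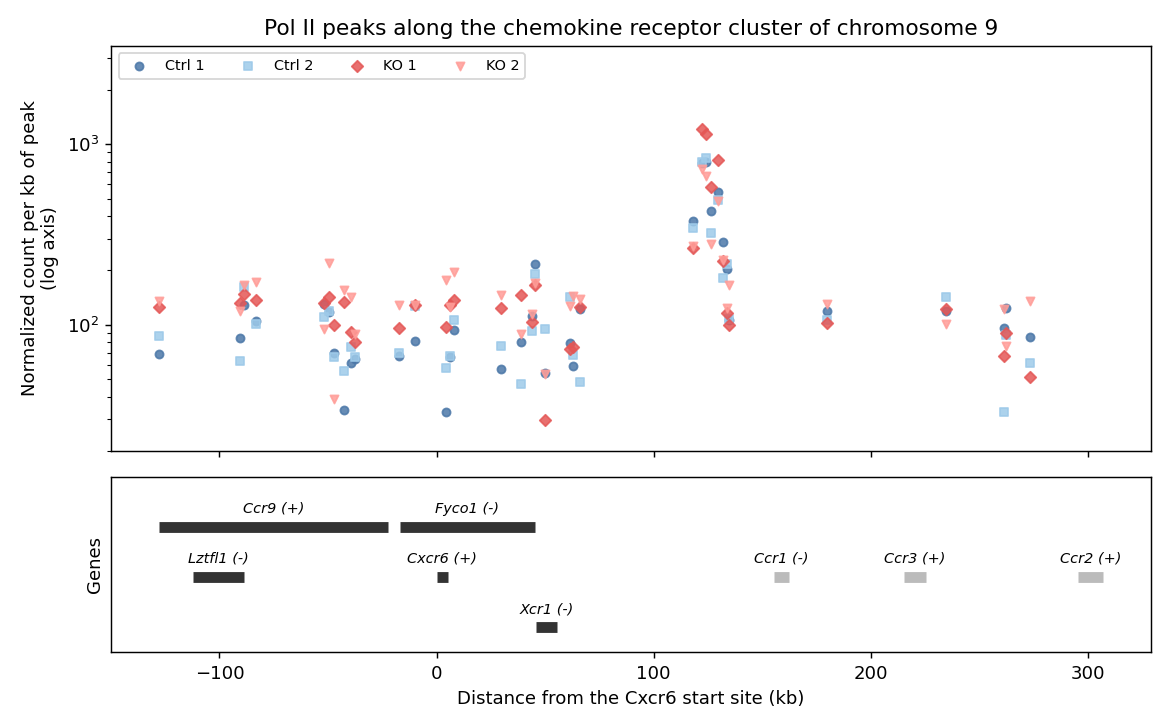
Pol II along the receptor cluster in the 4 libraries. The upper panel plots the normalized count per kb of peak (log axis) of each of the 36 peaks against its distance from the Cxcr6 start site in kb, and the lower panel shows the genes with their strands (dark bars hold a peak, grey bars hold none). Ccr1, Ccr3 and Ccr2 have no dark bar. The highest points belong to a run of peaks between Xcr1 and Ccr1 that lies in no gene counted here.

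The start sites of the 9 genes fell into those with a Pol II peak over the start and those without. A peak covered the RefSeq start sites of Ccr9, Fyco1, Lztfl1 and Ccrl2. The nearest peak edge was 4213 bp away at Cxcr6 and 5475 bp away at Xcr1. At Ccr1, Ccr3 and Ccr2 the distance was 17544, 18972 and 19147 bp. Absence of a peak does not mean absence of Pol II, since the table lists only regions that passed peak calling. The upstream sequences of 4 of these genes are shown because they span the range from a start under the largest Pol II peak of the cluster genes to a start without a peak. They are printed 5′ to 3′ on the strand of the gene, from RefSeq on GRCm38.p6, with each CG dinucleotide in capitals. The Ccr9 sequence stops before the first base of the annotated transcript at the usual start, and the other 3 hold the 250 bases before the RefSeq start.
Fyco1 (chr9:123851900-123852149, minus strand, start under a peak): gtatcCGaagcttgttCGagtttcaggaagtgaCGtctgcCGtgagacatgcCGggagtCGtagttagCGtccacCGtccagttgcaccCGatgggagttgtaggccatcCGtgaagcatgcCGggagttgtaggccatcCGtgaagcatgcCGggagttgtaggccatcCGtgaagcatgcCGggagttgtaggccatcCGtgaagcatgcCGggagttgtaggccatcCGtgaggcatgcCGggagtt
Ccr9 (chr9:123766961-123767168, plus strand, start under a peak): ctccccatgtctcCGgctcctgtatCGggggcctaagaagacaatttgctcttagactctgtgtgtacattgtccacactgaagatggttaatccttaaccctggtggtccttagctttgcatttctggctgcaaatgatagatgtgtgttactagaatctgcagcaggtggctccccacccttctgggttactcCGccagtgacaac
Cxcr6 (chr9:123806227-123806476, plus strand, no peak at the start): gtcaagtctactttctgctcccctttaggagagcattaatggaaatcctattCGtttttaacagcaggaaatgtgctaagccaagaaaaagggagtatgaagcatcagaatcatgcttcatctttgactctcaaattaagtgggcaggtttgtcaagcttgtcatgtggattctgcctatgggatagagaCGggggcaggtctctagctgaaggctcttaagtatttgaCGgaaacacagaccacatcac
Ccr3 (chr9:124021721-124021970, plus strand, no peak within the gene): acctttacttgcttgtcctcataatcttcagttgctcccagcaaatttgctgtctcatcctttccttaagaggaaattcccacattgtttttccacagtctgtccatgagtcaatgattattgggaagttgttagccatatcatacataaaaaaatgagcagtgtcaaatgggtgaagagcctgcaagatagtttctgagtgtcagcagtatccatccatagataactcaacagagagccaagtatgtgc

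These 250 bases held 19 CG dinucleotides at Fyco1, 3 at Cxcr6 and none at Ccr3. All 9 genes were found in the table, with 12 start sites. Another Fyco1 start held 27, Lztfl1 held 16 and the 3 starts of Ccrl2 held 5 to 7. Counts were 5 at Xcr1 and 1 each at Ccr1 and Ccr2. Over 32851 promoters of the same length the median was 6. Ccr9, with 3 CG dinucleotides, was the exception among the starts covered by a peak, which otherwise held 5 or more. The number of start sites is too small for more than this description.

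Over the 21 peaks, the log2 fold change was above 0 at 18, beside 48.9% of all peaks, and below 0 at 3, and no peak passed an adjusted test. In the fit of all 56615 peaks by DESeq2, 0 peaks (0%) had an adjusted p below 0.05, and edgeR called 27, none of them among the 21. At an unadjusted p below 0.05, 5 of the 21 peaks were higher in KO, beside 0.862% of all peaks (488 peaks), and 0 were lower, beside 0.664% (376 peaks). Both KO libraries lay above both Ctrl libraries at 14 of the 21, beside 16.2% of all peaks, and below both at 2, beside 16.1%. The median log2 fold change was 0.57 over the 21 peaks and -0.01 over all peaks, with a range of -0.88 to 1.72. Of the 5 peaks, 1 belonged to Ccr9 alone, 3 to Fyco1 alone and 1 to both Cxcr6 and Fyco1. Neighbouring peaks share their libraries and their chromatin and are not independent of one another.

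**Figure D2:**
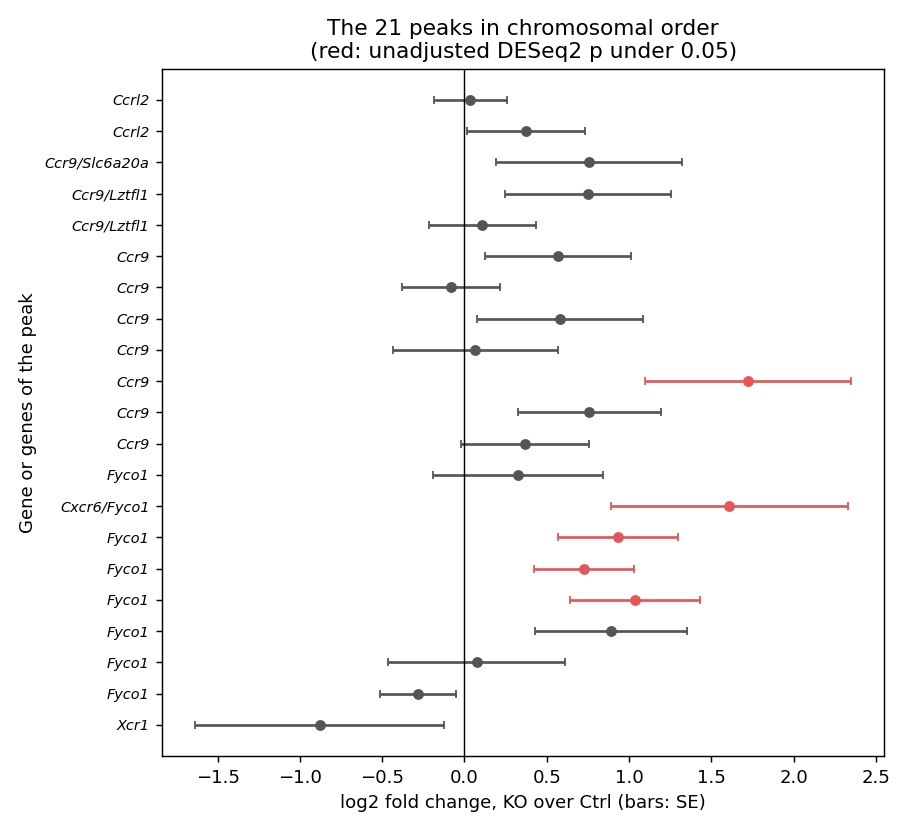
Log2 fold change of KO over Ctrl at each of the 21 peaks, from Ccrl2 at the top to Xcr1 at the bottom in chromosomal order. Points are DESeq2 estimates, bars are SE, and red marks an unadjusted p under 0.05. The red points are 1 Ccr9 peak and 4 adjoining peaks in Fyco1, of which 1 also lies in Cxcr6, and 3 of the points lie below 0.

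All but 2 of the 21 peaks were highest in a KO library, KO 2 at 12 of them and KO 1 at 7. Depth and peak density were compared because KO 2 was the shallowest library. The 21 peaks held between 58.1 and 186 normalized counts per kb of peak. Over the 47239 peaks of that density range the median log2 fold change was 0.0036, and KO 2 was the highest library at 32.0% and KO 1 at 18.6%. The median log2 ratio to the Ctrl mean was 0.51 in KO 2 and 0.40 in KO 1 over the 21 peaks, against -0.01 and -0.02 over the peaks of that range. The range holds 47239 of all 56615 peaks and is therefore no close match on density. What depth does to the 21 peaks was not tested.

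When the counts were summed per gene, Cxcr6, Ccr9 and Fyco1 were higher in both KO libraries than in both Ctrl libraries, with unadjusted p-values below 0.05 and adjusted p-values of 1.00. Of the 6 genes with a peak, 3 were higher at that unadjusted threshold, beside 1.45% of all 12928 genes (187 genes), and 0 were lower, beside 1.44%. The count of 3 fell to 2 without the long Ccr9 transcript and to 1 with unshared peaks only or with promoter peaks only, and the single Cxcr6 peak was also counted in Fyco1. No member was among the 13 genes (0.101%) with an adjusted p below 0.05. Both KO libraries exceeded both Ctrl libraries at 4 of the 6, beside 17.5% of all genes, and lay below both at 0, beside 16.9%. The median log2 fold change was 0.32 over the 6 genes and -0.0046 over all genes.

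**Figure D3:**
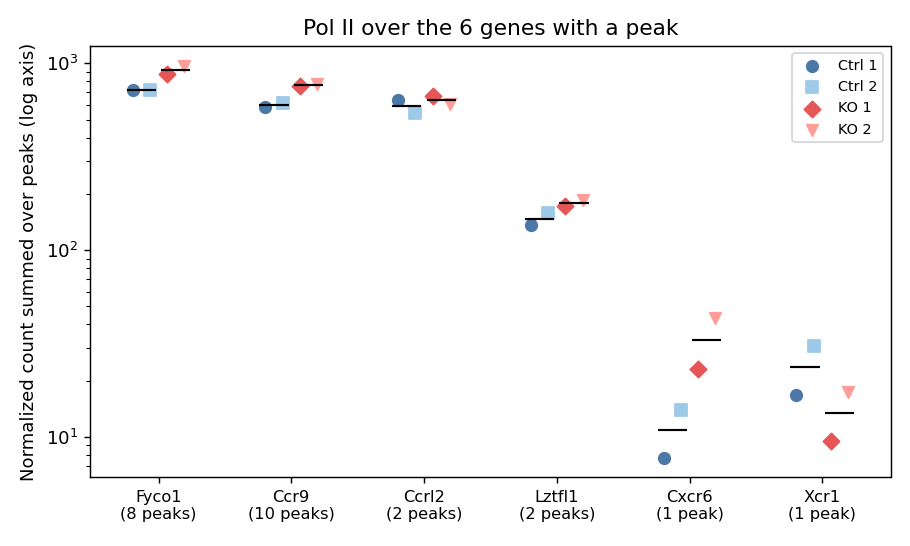
Normalized count summed over the peaks of each of the 6 genes with a peak (log axis), 1 symbol per library, with short lines for the mean of each group of 2 libraries. KO symbols lie above both Ctrl symbols at Fyco1, Ccr9, Lztfl1 and Cxcr6, and the groups overlap at Ccrl2 and Xcr1.

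Levels can be compared between genes only per length, since the peaks differ in width. Averaged over the 4 libraries, the normalized count per kb of peak was 142 at Ccrl2, 133 at Lztfl1, 131 at Fyco1, 106 at Ccr9, 91.6 at Cxcr6 and 58.2 at Xcr1. The level at Cxcr6 was averaged over libraries that differed several-fold, so its place in this order is loose.

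CXCR6 is the receptor for CXCL16 and is carried by activated and tissue-resident T cells. Its only peak (chr9:123810690-123810929) was 240 bp long and lay in the coding part of the second exon, and the same bases lie in an intron of Fyco1. Raw counts in it were 11, 10, 39 and 25. On the gene scale the normalized counts were 7.72, 13.9, 23.0 and 43.3. Both KO libraries were above both Ctrl libraries, but the higher KO library was also well above the other. The log2 fold change was 1.63 ± 0.74 (SE; DESeq2 unadjusted p = 0.0278, adjusted p = 1.00), and it ranged from 1.12 to 2.08 when each library was left out in turn. With 10 and 11 reads in the Ctrl libraries, counting error alone is large. The sequence of this peak is shown because the whole Cxcr6 value rests on it, and it is printed on the plus strand.
Cxcr6 peak (chr9:123810690-123810929, GRCm38.p6): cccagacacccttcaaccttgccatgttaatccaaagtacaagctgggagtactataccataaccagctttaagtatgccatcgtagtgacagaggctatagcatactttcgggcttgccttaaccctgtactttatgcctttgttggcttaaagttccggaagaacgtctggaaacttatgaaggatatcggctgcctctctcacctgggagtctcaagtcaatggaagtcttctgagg

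CCR9 is the receptor for CCL25, a chemokine of the small intestine and the thymus. The annotated gene held 10 peaks, of which 1 was shared with Slc6a20a and 2 with Lztfl1. Their summed normalized counts were 584, 613, 756 and 770.2. The 2 libraries of each group lay close together and the groups did not overlap. The log2 fold change was 0.35 ± 0.16 (DESeq2 unadjusted p = 0.0286, adjusted p = 1.00) and stayed between 0.32 and 0.39 with each library left out. Of the 10 peaks, 9 had a log2 fold change above 0, beside 48.9% of all peaks, and at 7 both KO libraries exceeded both Ctrl libraries, beside 16.2%.

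The Ccr9 peak with the lowest p-value (chr9:123763760-123764056, 297 bp) had its midpoint 3.26 kb upstream of the usual start, in an intron of the long transcript. Its normalized counts were 10.1, 16.5, 39.8 and 46.0. Each KO library held more than both Ctrl libraries together, with a log2 fold change of 1.72 ± 0.63 (DESeq2 unadjusted p = 0.0060, adjusted p = 1.00). The peak over the usual start (chr9:123766736-123767430) held 42.4, 52.4, 63.0 and 98.8, a log2 fold change of 0.76 ± 0.43 (DESeq2 unadjusted p = 0.0815), which was 0.43 without KO 2 and 1.07 without KO 1. The next peak into the gene (chr9:123768323-123769281) held 61.8, 63.4, 77.2 and 85.2. At the largest Ccr9 peak (chr9:123753737-123755201), far upstream of that start, the values 190.5, 163, 193 and 138 overlapped between the groups. The peaks near the usual start thus had the KO libraries above the Ctrl libraries, and the largest peak did not.

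How much of this belongs to Ccr9 depends on the transcripts and peaks counted. Without the long transcript the peak just described fell outside the 3 kb window and 2 peaks remained, with summed normalized counts of 104, 116, 140.2 and 184, a log2 fold change of 0.57 ± 0.30 and a DESeq2 unadjusted p of 0.0631. Without the 3 shared peaks the log2 fold change was 0.34 at a DESeq2 unadjusted p of 0.0610. With promoter peaks only it was 0.54 at 0.0113, but these are peaks within 3 kb of any annotated start site. They include the 3 shared peaks, of which 2 also belong to Lztfl1. The upstream peak is shown in full because it had the largest log2 fold change of the 21. It was searched on both strands for the letters of 5 motifs, namely TTCNNNGAA for STAT factors, TGTGGT for RUNX factors, GATAAG for GATA factors, TGACTCA for AP-1 factors and TATAAA for the TATA box. In the sequence capitals mark 1 TGTGGT match and 1 GATAAG match, the latter on the reverse strand and so printed as CTTATC, and these do not overlap.
Ccr9 upstream peak (chr9:123763760-123764056, plus strand, GRCm38.p6): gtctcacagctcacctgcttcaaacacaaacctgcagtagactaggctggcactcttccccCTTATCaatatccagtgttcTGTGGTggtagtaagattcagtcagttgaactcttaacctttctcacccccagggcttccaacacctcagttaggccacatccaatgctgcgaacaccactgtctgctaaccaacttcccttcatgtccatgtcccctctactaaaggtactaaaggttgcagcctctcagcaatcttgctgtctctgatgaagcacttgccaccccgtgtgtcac

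Windows of 297 bases centred on each of the 56615 peaks held TGTGGT in 24.2% and GATAAG in 7.63% of cases. The Cxcr6 peak held none of the 5 strings. A letter match is not evidence of a bound factor, and its absence only describes these windows.

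Fyco1 encodes an adaptor that links late endosomes and autophagosomes to kinesin for transport along microtubules. Its 8 peaks summed to 717, 724, 874 and 973, with the 2 Ctrl libraries close together and both KO libraries above them. The log2 fold change was 0.35 ± 0.16 (DESeq2 unadjusted p = 0.0230, adjusted p = 1.00). The excess was not spread evenly over the gene. The peak over the start (chr9:123850777-123852583) held 390.3, 347, 300.0 and 308, lower in both KO libraries, with a log2 fold change of -0.28 ± 0.23 (DESeq2 unadjusted p = 0.220), which was -0.19 without Ctrl 1. The peak beside it (chr9:123850037-123850364) held 36.7, 30.3, 33.9 and 37.5, and there the groups overlapped.

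Further into Fyco1 the order was the opposite. The peak at chr9:123835614-123836358 held 42.4, 56.5, 92.7 and 109, a log2 fold change of 1.04 ± 0.40 (DESeq2 unadjusted p = 0.0090). The peak at chr9:123813881-123815139 held 117, 134, 173 and 245, with a log2 fold change of 0.73 ± 0.30 (DESeq2 unadjusted p = 0.0165), which was 0.47 without KO 2. The peak at chr9:123812002-123812883 held 58.2, 59.2, 113 and 111, with a log2 fold change of 0.93 ± 0.37 (DESeq2 unadjusted p = 0.0105). These last 2 peaks lie in the same Fyco1 intron as Cxcr6, 2121 and 242 bp past the 3′ end of Cxcr6. Whether reads there came from Pol II on the plus or the minus strand cannot be told apart without strand.

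All 6 peaks more than 3 kb from the Fyco1 start had both KO libraries above both Ctrl libraries, beside 16.2% of all peaks. Of the 6 peaks, 4 were higher at a DESeq2 unadjusted p below 0.05, beside 0.862% of all peaks. The Cxcr6 peak is 1 of these 4. The 6 peaks summed to 308, 339, 546 and 611, whereas the 2 peaks nearer the start summed to 427, 378, 334 and 346. The ratio of the first sum to the second was 0.721, 0.898, 1.64 and 1.77. Ratios of both KO libraries were above those of both Ctrl libraries, as they were at 18.2% of the 5719 genes with peaks in both places. The log2 change of the ratio was 1.08 at Fyco1 and 0.05 at the median gene, and 76 of the 5719 genes (1.33%) had a change at least that large. This division of Fyco1 was made after its values had been seen, so these figures describe the gene and are no test. Counted another way, over the 3 Fyco1 peaks within 3 kb of any annotated start site, which include 1 of these 6, the log2 fold change of the gene was -0.06 (DESeq2 unadjusted p = 0.733). Ccr9 was the only other member with such a ratio, measured from the start of its long transcript. There the ratio went the other way, at 27.7, 22.2, 19.0 and 17.5, a log2 change of -0.44. Its start part rests on the peak shared with Slc6a20a.

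**Figure D4:**
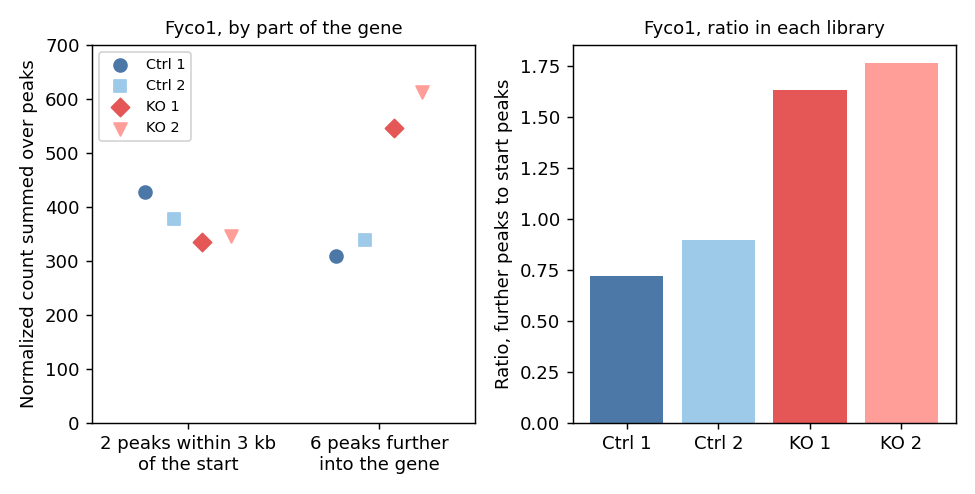
Fyco1 split by distance from its start. The left panel plots the normalized count summed over the 2 peaks within 3 kb of the start and over the 6 peaks further into the gene, 1 symbol per library, and the right panel plots the ratio of the second sum to the first as bars from 0. KO symbols lie below the Ctrl symbols near the start and above them further in, and the ratio is 1.64 and 1.77 in KO against 0.721 and 0.898 in Ctrl.

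The remaining 3 genes with a peak did not pass the unadjusted threshold. Lztfl1 encodes a regulator of protein traffic to the primary cilium. Both of its peaks also lay within the long Ccr9 transcript, and they summed to 135, 157, 172 and 185. The KO libraries were above the Ctrl libraries, with a log2 fold change of 0.29 ± 0.27 (95% interval -0.25 to 0.82; DESeq2 unadjusted p = 0.290). The peak over its start (chr9:123717201-123718004) held 104, 130, 118 and 133, which overlapped, and the smaller one (chr9:123715554-123715968) held 35.2, 26.2, 54.7 and 49.4, which did not.

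XCR1 is the receptor for XCL1 and a marker of the cross-presenting dendritic cell. The single Xcr1 peak (chr9:123856236-123856554) lay in coding sequence, and the gene count was 16.8, 30.6, 9.45 and 17.3. Libraries of the same group differed about as much as the groups did, and on this scale the ranges overlapped. On the peak scale the same reads gave 17.3, 30.3, 9.51 and 17.0, with both KO libraries below both Ctrl libraries by a narrow margin. It was the only one of the 6 genes with a negative log2 fold change, -0.87 ± 0.78 (95% interval -2.39 to 0.66; DESeq2 unadjusted p = 0.266). Of the 6 dendritic cell markers, Itgax and Clec9a held no peak. Batf3 held 26.0, 40.4, 15.9 and 20.8, lower in both KO libraries, with a log2 fold change of -0.86 ± 0.65. Flt3 held 42.1, 33.4, 35.4 and 38.1, and there the groups overlapped. Irf8, with all 4 of its peaks also in other genes, held 141, 134, 167 and 216. Zbtb46 held 558, 572, 579 and 594. Irf8 and Zbtb46 were thus higher in both KO libraries, unlike Xcr1 and Batf3. The part of other cells in these counts was not tested.

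CCRL2 binds the chemoattractant chemerin without signalling through it. Its start was covered by a wide peak (chr9:111054960-111058479) with 576, 462, 579 and 484, and the peak just upstream (chr9:111058862-111059665) held 77.6, 77.2, 91.5 and 111. The gene count was 639, 544, 667 and 604, with the 2 Ctrl libraries further apart than the group means of 592 and 635. The log2 fold change was 0.10 ± 0.17 (95% interval -0.24 to 0.44; DESeq2 unadjusted p = 0.556), and without Ctrl 2 it turned to -0.0046. A difference of the size seen at Ccr9 or Fyco1 lies within this interval.

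CCR1, CCR2 and CCR3 are receptors of inflammatory chemokines on monocytes, eosinophils and effector T cells. None of the 3 genes, and none of their 3 kb upstream windows, held a peak midpoint, so no value can be given for any library. Of the 7 monocyte and macrophage markers 6 held no peak, Lyz2, Csf1r and Itgam among them. The other 1, Cd14, held a peak with 68.8, 118, 41.3 and 88.3, and there the groups overlapped. These counts were above those of Cxcr6 and Xcr1 in every library but were not scaled to peak length. None of the 4 eosinophil markers held a peak.

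The same comparison was made for the chemokine receptors that lie elsewhere. Of 15 such genes, 9 held a peak, and 6, Cxcr1, Cxcr2 and the 4 atypical receptors Ackr1 to Ackr4, held none. At an unadjusted p below 0.05, 0 were higher, beside 1.45% of all genes, and 1 was lower in KO, beside 1.44%, and the median log2 fold change was -0.20. The lower one was Cx3cr1, the fractalkine receptor, with 12453, 12278, 10898 and 10355, a log2 fold change of -0.22 ± 0.11 (DESeq2 unadjusted p = 0.0479, adjusted p = 1.00) over 41 peaks, of which 17 also belonged to other genes. Ccr7, which guides cells into lymph nodes, held 2459, 2755, 2102 and 2316. Cxcr4, the CXCL12 receptor, held 1605, 1396, 1336 and 1166. Cxcr5, which guides cells into B cell follicles, held 1645, 1860, 1794 and 2042, and there the groups overlapped. Both KO libraries were below both Ctrl libraries at 4 of these 9 genes, beside 16.9% of all genes, and above both at 1, beside 17.5%. At the members 4 of 6 lay above both, but Fyco1 and Lztfl1 among them are not receptors. The Cxcr6 peak was also counted in Fyco1, and both Lztfl1 peaks in Ccr9. The lists are thus unlike, and the difference between them was not tested.

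Of 13 ligand genes of these receptors only Cxcl16 and Ccl25 held a peak, and neither passed the unadjusted threshold. Cxcl16, the CXCR6 ligand, held 129, 125, 150.0 and 112, and Ccl25, the CCR9 ligand, held 535, 663, 587 and 509, with 4 of its 5 peaks shared with other genes. All 16 genes listed for signalling downstream of the receptors held a peak. At an unadjusted p below 0.05, 0 of these were higher, beside 1.45% of all genes, and 0 were lower, beside 1.44%. Their log2 fold change was above 0 at 11 of 16, beside 49.1% of all genes, with a median of 0.05. Both KO libraries lay above both Ctrl libraries at 5, beside 17.5% of all genes, and below both at 1, beside 16.9%. The 4 with the highest counts were Dock2 and Elmo1, which activate Rac on chemokine signals, Grk2, a kinase that desensitizes the receptors, and Rgs1, which shortens G protein signalling. Their log2 fold changes lay between -0.06 (Elmo1) and 0.17 (Grk2).

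Among the 12927 other genes, those whose log2 normalized counts over the 4 libraries ran close to Cxcr6 included Kalrn and Ighv1-77, with root mean square differences of 0.10 and 0.16 on the log2 scale. Their counts were as low, from 8.42 to 19.5 in the Ctrl libraries. For Ccr9, 5787 genes of sufficient level were compared and the closest were Nubp2, Tmem50b and Pex16, at 0.0081, 0.0266 and 0.0272. With 4 libraries such closeness is a description only.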

How the data were processed

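Libraries were grouped by the genotype in their labels. The authors mapped reads to mm10 with Bowtie2, called peaks with MACS2 against IgG, merged them with bedtools and deposited raw, unnormalized counts per merged peak; tool versions are not given in the sources used here. The IgG library was not analysed here, so no background was subtracted. No column was left without a sample (0 columns). Starts were converted to count from 1. Peaks were assigned with GENCODE vM21 (GRCm38), without pseudogenes, genes of the unconfirmed class TEC and genes of small, ribosomal and miscellaneous RNAs. A midpoint in the body or the 3 kb upstream of a protein-coding gene gave the peak to each such gene. With none, the peak went to each remaining non-coding gene that met this rule. Counts of all 56615 peaks, and sums for 12928 genes, were fitted with DESeq2 1.42.0 (R 4.3.3), genotype only, Wald test, with Benjamini-Hochberg adjustment over all peaks or all genes. Scripts were tested on simulated data. Alternatives were edgeR 4.0.16 (quasi-likelihood, TMM), total-count scaling, a mean count of at least 10 and the replicate number as a block. Others were each library left out, 1 kb upstream, unshared peaks and promoter peaks (within 3 kb of any annotated start site). Ccr9 without its long transcript was added after the data were seen.

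All 9 members were named. Of every other list, at most the 4 genes with the highest mean and any with an unadjusted p below 0.05 were named, and marker genes and Slc6a20a beside them were named as context. For likeness, the 3 genes closest to Cxcr6 and to Ccr9, with a mean of at least 0.5 times that of the member, were selected. Some genes that these rules select are not reported here. Members and lists were chosen with earlier results of these data known. Sequences came from RefSeq on GRCm38.p6. Peaks were called on the libraries compared, and low peaks carry the largest counting error.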

Additional observations from a re-analysis of the deposited data

How the results depend on the processing

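Of 44 fold changes of the 6 genes under another fit, 43 kept their direction, and 1 reversed, Fyco1 with promoter peaks only (-0.065). Part of this agreement was fixed in advance. A mean count of at least 10 removed none of the 12928 genes, so its values equal those of the main fit. Leaving out the long Ccr9 transcript changed the peaks of no member but Ccr9. No member passed an adjusted p of 0.05 in the fits that gave one. Of members past the unadjusted threshold there were 3, but 1 with unshared peaks only, 1 with promoter peaks only and 2 without the long Ccr9 transcript, a setting added after the data were seen. Fewer peaks are counted in these settings, Cxcr6 and Lztfl1 have no unshared peak, and Cxcr6 and Xcr1 have no promoter peak. The 5 peaks past it became 7 with edgeR and 6 with total-count scaling. The share of all peaks past it with total-count scaling is not given here. With edgeR 2057 of all 56615 peaks passed it, against 488 higher and 376 lower in KO with DESeq2. Over all peaks, adjusted calls went from 0 to 27 with edgeR, and over all genes from 13 to 0 with edgeR (631 at an unadjusted p below 0.05) and to 7 with unshared peaks only. The cause was not tested. With 1 library left out in turn, log2 fold changes ran from 1.12 to 2.08 at Cxcr6, 0.32 to 0.39 at Ccr9, 0.28 to 0.43 at Fyco1, 0.18 to 0.39 at Lztfl1, -1.31 to -0.37 at Xcr1 and -0.0046 to 0.23 at Ccrl2, as values without a test. Cxcr6 and Xcr1, each resting on 1 peak of few reads, had the largest SE of the 6 genes, 0.74 and 0.78.

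The labels share replicate numbers between the groups, but nothing shows that the numbers pair the samples (correlation of deviations 0.233). With the replicate number as a block, calls were 25 over all peaks (41710 had no adjusted p) and 116 over all genes (10777 had no adjusted p). These calls thus come from far fewer peaks and genes than without the block. Members past the unadjusted threshold were again 5 peaks and 3 genes. The share of all peaks and genes past it in this fit is not given here, so these member counts have nothing to be set beside.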

Other observations

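The interval from Ccr9 to Ccr2 also held 16 peaks that lay in no gene counted here and within 3 kb upstream of none. Pseudogenes and the other gene kinds left out of the assignment were not looked at there. A run of 8 of them (chr9:123923163-123941669, 18.5 kb), 61.1 kb from Xcr1 and 20.5 kb past the 3′ end of Ccr1, carried 76.9% of the normalized counts of the interval. The summed counts were 6220 and 5794 in the Ctrl libraries, against 8140 and 5098 in KO 1 and KO 2, so the KO libraries lay on either side of the Ctrl libraries and KO 1 was 1.60 times KO 2. The run held 517 normalized counts per kb of peak, above every gene of the cluster. KO 1 was the highest library at 4 of the 8 peaks, among them the largest (chr9:123927520-123929769), with 1771, 1801, 2727 and 1632 in the order Ctrl 1, Ctrl 2, KO 1, KO 2. The first peak of the run (chr9:123923163-123925968) differed from these. It held 1054, 963, 751 and 765, with a log2 fold change of -0.41 ± 0.19 (DESeq2 unadjusted p = 0.0283). It was chosen for mention after its values were seen.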
